A study of Mus musculus with 4 samples.

Results

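Blood and vessel lineage miRNAs are a set of 8 probes on mouse microRNA arrays, out of 696 miRNA probes in all. They were chosen by name, from known enrichment in blood or vessel cells: mmu-miR-451 and mmu-miR-144 (erythroid), mmu-miR-223 and mmu-miR-142-3p (leukocyte), mmu-miR-126-3p and mmu-miR-126-5p (endothelial), and mmu-miR-221 and mmu-miR-222 (vascular). The choice was made with earlier results of these data known. The species prefix mmu- is left out below. Each was read in total RNA of mandibular molar tooth germs from untreated ICR mouse embryos, an outbred laboratory strain, at 4 stages, embryonic day 11 (E11), day 12 (E12), day 14 (E14) and day 16 (E16). Over these days the molar passes from a thickened dental epithelium through the bud and cap to the bell stage. Each stage was measured on 1 single-colour (Cy3) Agilent array. The labels used here do not say how many embryos gave the RNA of an array. With 1 array per stage the number of arrays limits the precision, and no test between stages is possible. Every error printed with ± is the measurement error deposited with the signal, or the combination of those errors, and holds nothing of the spread between embryos or litters.

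MicroRNAs are short RNAs that guide Argonaute proteins to messenger RNAs, mostly through a seed at bases 2 to 8, and so lower the output of those messenger RNAs. In the embryo, red cells made first in the yolk sac and then in the fetal liver carry miR-451 and miR-144. Myeloid cells, macrophages among them, carry miR-223, and miR-142 is found throughout blood-forming cells. Endothelial cells carry miR-126, whose host gene Egfl7 is itself an endothelial gene. A tooth germ is no blood-forming organ, but capillaries surround it and later enter its dental papilla, so that a bulk extract can hold RNA of blood and vessel cells. In such an extract, fewer cells of a type and less of a miRNA in each cell cannot be told apart.

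The mature sequences are shown for the miRNA that each probe name was read as, and to show which miRNAs share a seed. The sequences of the probes themselves were not available to check that reading. RefSeq's table for GRCm38.p6 held 7 of the 8, and miR-126-5p is named only. They are written 5′ to 3′ with the seed, bases 2 to 8, in capitals.
miR-451 (miR-451a): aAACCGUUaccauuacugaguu
miR-144 (miR-144-3p): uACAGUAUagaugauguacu
miR-223 (miR-223-3p): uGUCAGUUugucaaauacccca
miR-142-3p (miR-142a-3p): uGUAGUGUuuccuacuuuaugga
miR-126-3p (miR-126a-3p): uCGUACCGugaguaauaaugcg
miR-221 (miR-221-3p): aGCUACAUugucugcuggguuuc
miR-222 (miR-222-3p): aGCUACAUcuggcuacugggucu

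These 7 sequences have 6 distinct seeds. miR-221 and miR-222 share GCUACAU, and miR-1928 is the other mature sequence of the table that has it. Read without gaps from the 5′ end, the pair is identical through position 8 and at 11 of 23 positions in all. The seeds of miR-451, miR-144, miR-223, miR-142-3p and miR-126-3p are found in no other mature sequence of the 1738 in the table. The GC content runs from 30.0% in miR-144 and 34.8% in miR-142-3p to 52.2% in miR-222.

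The genes lie at 5 places in the genome, with the erythroid and the vascular pair each clustered. Mir144 (chr11:78073005-78073070) and Mir451a (chr11:78073170-78073241) are on the plus strand with 99 bases between their hairpins. Mir221 (chrX:19146294-19146388) and Mir222 (chrX:19146893-19146971) are on the minus strand with 504 bases between them. Mir126a (chr2:26591357-26591429, plus strand) is the source of both miR-126 arms, so these probes read 2 products of 1 transcript. Mir142 (chr11:87756864-87756927, plus strand) and Mir223 (chrX:96242817-96242926, plus strand) lie apart from these pairs. The table also lists Mir451b, Mir126b and Mir142b on the opposite strand, overlapping their partners by 72, 58 and 64 bases. The probe names carry no such suffix and were read as the plus-strand genes.

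The Mir451a hairpin is printed because its layout is unusual. The mature part, in capitals, begins at base 17 of 72 and runs on through the loop, a precursor known to be cut by Argonaute 2 and not by Dicer.
Mir451a hairpin: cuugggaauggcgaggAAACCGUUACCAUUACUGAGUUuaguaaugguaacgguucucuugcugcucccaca

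The arrays detected 209 to 250 of 696 miRNAs (30.0% at E11, 35.9% at E16), and 197 on every array. An undetected probe is written as 0.1. The signals are Agilent's total gene signals in arbitrary intensity units, as deposited and not scaled between arrays. The lowest detected signal was 5.48 at E11, 7.43 at E12, 5.69 at E14 and 6.51 at E16. The lowest ratio of any detected signal to its error was 3.005, at E16. The labelled tissue carried its markers at every stage. All 4 mesenchymal probes (miR-199a-3p, miR-199a-5p, miR-214 and miR-199b*) were detected on every array, with summed deposited signals of 10881 to 16901. Of the 7 epithelial probes (the miR-200 family, miR-203 and miR-205), 6 were detected at E11 and all 7 later, and their summed signal went from 1795 at E11 to 9364 at E16. None of 7 muscle probes, and not the liver's miR-122, was detected on any array.

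The number of blood and vessel miRNAs detected went from 3 of 8 at E11 to 4 at E12, 5 at E14 and 7 at E16. miR-451, miR-126-3p and miR-126-5p were detected on every array. miR-223 was detected from E12 on, miR-221 from E14 on, and miR-142-3p and miR-144 at E16 alone. miR-222 was detected on none. No member was lost once it had been detected, and most miRNAs were kept likewise. Of all miRNAs detected at E11, 8 of 209 were undetected at E12. The next steps lost 9 of 221 (E12 to E14) and 18 of 249 (E14 to E16). Of the 5 members undetected at E11, 4 were detected at E16, where 9.24% of the 487 miRNAs undetected at E11 were. Most of those 487, 424 probes, were detected on no array, and these 424 are in each denominator that follows. The remainder are 45 detected at E16, 16 at E14 alone, 1 at E12 alone and 1 at E12 and E14. Among miRNAs undetected at E11 but detected on some array, the share detected at E16 is thus far higher than 9.24%. Stage by stage, 1 of 5 members appeared at E12 (4.11% of the 487), miR-221 as 1 of 4 at E14 (7.79% of 475) and 2 of 3 at E16 (4.25% of 447). Over all miRNAs, 13 had miR-223's pattern of detection, 14 that of miR-221 and 13 that of miR-142-3p and miR-144.

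**Figure D1:**
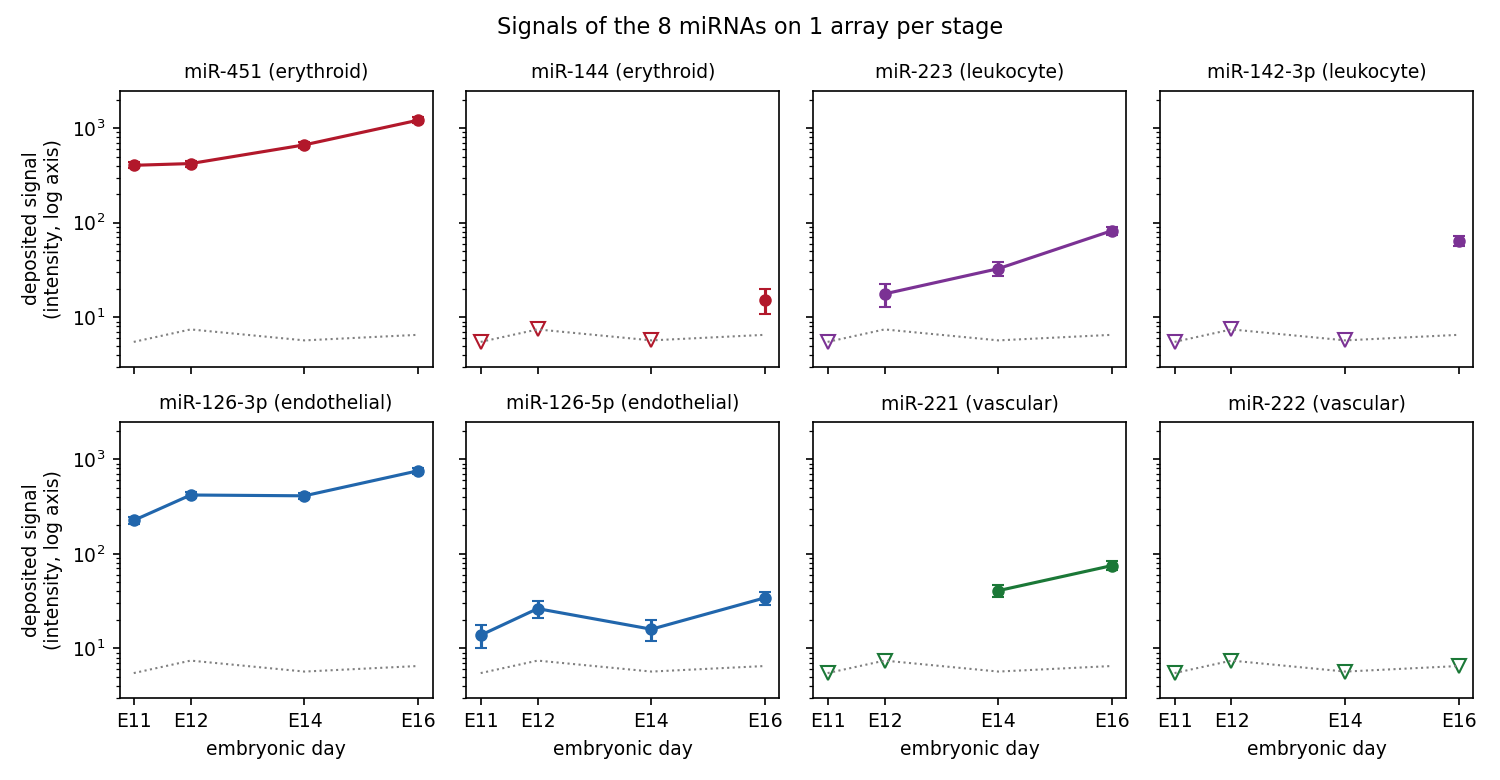
Deposited signal (intensity, log axis) of each of the 8 miRNAs against embryonic day, 1 array per stage. Filled points with bars are detected signals ± the deposited error, open triangles are undetected probes drawn at the array's lowest detected signal, and the dotted line joins those lowest signals. miR-451 and miR-126-3p are the only members above 100 on every array, and filled points are found in 3 panels at E11 and in 7 at E16.

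Differences between stages depend on how the arrays are set against each other, so they are given on more than 1 footing. On the main footing each signal was divided by its array's 75th percentile over the 197 miRNAs detected on all arrays. That percentile was higher at E16 than at E11 by 1.44 on the log2 scale, with steps of 0.67, 0.41 and 0.36. A difference is later minus earlier in log2, and a call means detection at both stages and at least 2-fold. On a further footing a member's difference is read against the median over every miRNA that both arrays detected. That distance is the same under any constant scaling of an array. Of the 7 scalings used, only quantile normalization and the authors' table could change it, and both gave the same member values.

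Of the erythroid pair, miR-451, known to protect red cell precursors from oxidative stress, was strong at every stage. Its deposited signals were 404 ± 30.0 at E11, 422 ± 31.2 at E12, 665 ± 48.3 at E14 and 1214 ± 87.9 at E16. The E11 and E12 signals differ by less than their errors, and E14 and E16 stand above both. Relative to the 75th percentile the order was different. The scaled levels (log2) were 0.69 at E11, 0.09 at E12, 0.33 at E14 and 0.85 at E16, each ± 0.10 to 0.11. On that scale E12 was lowest and E16 highest, E11 lay 0.15 ± 0.15 below E16, and E12 and E14 were 0.25 ± 0.15 apart, less than 2 combined errors.

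From E11 to E12 miR-451 was one of the miRNAs that lagged. Its scaled difference was -0.61 ± 0.15, which put it at place 151 of 201 from the top and 0.41 below the median of all miRNAs. It also lay below that median with quantile normalization (by 0.23) and in the authors' table (by 0.24). Of the 3 members detected at both stages, 0 passed 2-fold in either direction, where 9.45% of the 201 were higher and 8.46% lower. From E12 to E14, where 12.7% of 212 miRNAs and 0 of 4 members were at least 2-fold higher, it was 0.25 ± 0.15, place 55 of 212 and 0.64 above the median. From E14 to E16 it was 0.51 ± 0.15, place 47 of 231 and 0.57 above the median. In these later steps it was also above the median with quantile normalization and in the authors' table.

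miR-144 comes from the same primary transcript as miR-451 and acts in the same red cell precursors. Its probe gave a signal at E16 alone, 15.3 ± 4.4, and its ratio of signal to error was 3.47, close to the lowest ratio of any detected probe. Of the 45 miRNAs detected at E16 and not at E11, it ranked 39 by that ratio. The bound against E11 was 1.03-fold after scaling and fell under 1 with quantile normalization, in the authors' table and with the percentile of RefSeq-named miRNAs. Against E14 the bound was at least 2.10-fold higher after scaling. It fell under 1 on the same scale when the undetected level was taken from the probe's own error (the lowest ratio of any detected signal to its error, times that error). A signal of its E16 size would have been near the limit of detection on the earlier arrays, so the size of any change of miR-144 is not given. Its change was not set against that of miR-451, which takes detection of both at both stages.

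Of the leukocyte pair, neither was detected at E11. miR-223, known to restrain granulocyte production and to be abundant in neutrophils and macrophages, was undetected at E11 and gave 17.6 ± 4.9 at E12, 32.6 ± 5.6 at E14 and 82.4 ± 8.5 at E16. Its ratio of signal to error went from 3.64 to 5.87 and 9.69, so its E12 value is the least certain. The difference from E12 to E14 was 0.48 ± 0.47, about the size of its error. From E14 to E16 it was 0.98 ± 0.29, just under 2-fold on the scaled values, and 1.34 on the deposited signals. Here it ranked 18 of 231 on the main scale and stood 1.04 above the median of all miRNAs, the highest place of the 5 members detected at both stages. It passed 2-fold in 5 of the 7 scalings, with a range of 0.52 to 1.34. Quantile normalization and the authors' table, both among those 5, gave the same value, 1.33.

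miR-142-3p, found throughout blood-forming cells, was undetected at E11, E12 and E14 and gave 64.4 ± 7.5 at E16. With a signal 8.56 times its error, this detection was well clear of the limit. The nominal bound was at least 8.84-fold higher at E16 than at E14 and at least 4.34-fold higher than at E11, after scaling and against each array's lowest detected signal. With the probe's own error as the undetected level, on the same scale, they were 2.23-fold and 1.05-fold. The other arm, miR-142-5p, was on the arrays and was not detected at any stage.

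A bound of this kind was also found for miR-223 from E11, at least 2.02-fold higher at E12 and 5.56-fold at E16. With the probe's own error as the undetected level, on the same scale, the former fell under 1 and the latter was 2.09-fold. On the log2 scale the error of its E12 signal was 0.40 and that of its E16 signal 0.15.

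The endothelial miR-126-3p, known to sustain VEGF signalling by repressing Spred1 and to keep vessels intact, was the other strong member. Its deposited signals were 226 ± 16.8 at E11, 419 ± 30.6 at E12, 411 ± 29.8 at E14 and 757 ± 54.3 at E16. Those of E12 and E14 differ by less than their errors, with E11 below and E16 above. Scaled, its levels (log2) were -0.15, 0.08, -0.36 and 0.16, each ± 0.10 to 0.11. The whole range was 0.52, and the highest, E16, was within its error of E12 (0.09 ± 0.15). Its first step, 0.22 ± 0.15, lay 0.42 above the median of all miRNAs. The step from E12 to E14, -0.44 ± 0.15, lay at that median (0.04 below it, place 112 of 212). The last step, 0.52 ± 0.15, lay 0.58 above it.

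miR-126-5p, the less abundant arm in most tissues and known to support endothelial proliferation through Dlk1, gave 13.8 ± 3.7 at E11, 26.3 ± 5.2 at E12, 16.0 ± 3.9 at E14 and 34.3 ± 5.4 at E16. E12 and E16 were higher than E11 and E14 in these signals. Its ratios of signal to error, 3.75 to 6.39, were low, and the errors of its differences were 0.42 to 0.48. The scaled fall from E12 to E14, -1.13 ± 0.45, was the 1 call among the members in that direction and step. That is 1 of 4 members detected at both stages, where 15.1% of 212 miRNAs were at least 2-fold lower. The fall ran from -1.52 to -0.69 over the 7 scalings. It was under 2-fold with median scaling, with the RefSeq-named percentile and on the deposited signals. From E14 to E16 it was 0.75 ± 0.42.

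The 2 arms of miR-126 were set against each other in 4 comparisons, with the combined error of 4 signals. The change of miR-126-3p minus that of miR-126-5p was -0.04 ± 0.50 from E11 to E12, -0.22 ± 0.44 from E14 to E16 and 0.43 ± 0.47 from E11 to E16. From E12 to E14 it was 0.70 ± 0.48, or 1.46 times the error. No constant scaling of an array can change these values, and errors of 0.44 to 0.50 limit them. Quantile normalization and the authors' table are not constant. Both gave 1.23 from E12 to E14 (2.59 times the error), -0.72 from E14 to E16 (1.62 times), 0.54 from E11 to E16 (1.15 times) and 0.03 from E11 to E12.

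The vascular pair share a seed and a cluster but not a course of detection. miR-221, which in vessel walls is known to act on endothelial Kit and smooth muscle p27, was undetected at E11 and E12 and gave 40.8 ± 5.8 at E14 and 75.3 ± 8.0 at E16. The bound from E12 to E14 was at least 4.14-fold higher after scaling, and 1.76-fold on the same scale with the probe's own error. From E14 to E16 the scaled difference was 0.53 ± 0.26, place 45 of 231, with 0.07 to 0.88 over the scalings. miR-222, with the same seed and the same known targets, was undetected on all 4 arrays. Probes differ in affinity, so this gives no ratio between the pair. These miRNAs are not confined to vessels, and their level cannot be assigned to a cell type here.

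From E11 to E16 the 3 members detected at both stages were not called. miR-451 was at 0.15 ± 0.15, miR-126-3p at 0.31 ± 0.15 and miR-126-5p at -0.12 ± 0.45, so that 0 of 3 were at least 2-fold higher and 0 of 3 lower. Over all 205 miRNAs 13.7% were higher and 37.6% lower. On the deposited signals the same differences were 1.59, 1.74 and 1.32 and 3 of 3 were higher, against 44.9% of the 205. miR-451 and miR-126-5p were below 0 under at least 1 scaling, with lows of -0.02 and -0.30. All 3 lay above the median of all miRNAs, which was -0.74 on the main scale. They did so too with quantile normalization and in the authors' table. On the main scale their distances from that median were 0.90, 1.05 and 0.62, and their places 63, 50 and 73 of 205.

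**Figure D2:**
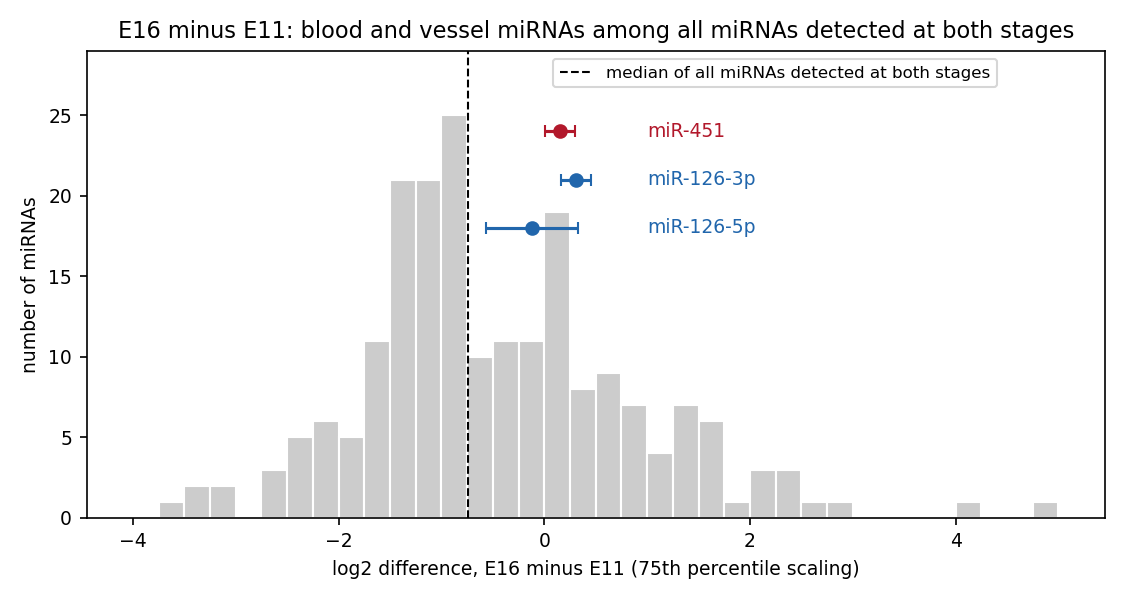
Histogram of the log2 difference E16 minus E11 (75th percentile scaling) for the 205 miRNAs detected at both stages; the vertical axis counts miRNAs. Points with bars are the 3 blood and vessel miRNAs ± combined measurement error, at an arbitrary height, and the dashed line is the median of all, -0.74. The 3 points lie to the right of the dashed line and within 0.31 of 0.

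From E14 to E16, 5 members were detected at both stages and all 5 lay above the median of all miRNAs (-0.06). They did so too with quantile normalization and in the authors' table. Their scaled differences ran from 0.51 for miR-451 to 0.98 for miR-223. With the percentile of RefSeq-named miRNAs, 4 of the 5 were within their errors. There miR-451 was at 0.05 ± 0.15, miR-126-3p at 0.07 ± 0.15, miR-221 at 0.07 ± 0.26 and miR-126-5p at 0.29 ± 0.42. miR-223 was at 0.52 ± 0.29. None reached 2-fold on the main scale, where 7.36% of 231 miRNAs were at least 2-fold higher and 13.4% lower. Epithelial probes also had higher signals at E16: their summed signal went from 5363 at E14 to 9364 at E16, and that of the mesenchymal probes from 11101 to 12629, as deposited. The part of tissue composition in these differences was not tested.

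The erythroid and the endothelial miRNA differed in their steps to and from E12. Both steps share the single E12 array, so the 2 differences are not independent. Scaled, E14 lay below E11 by 0.36 ± 0.15 for miR-451 and by 0.22 ± 0.15 for miR-126-3p. From E11 to E12 miR-451 changed by 0.83 ± 0.21 less than miR-126-3p (log2, first minus second -0.83), 3.89 times the combined error. From E12 to E14 it changed by 0.69 ± 0.21 more, 3.25 times the error. From E14 to E16 the changes differed by -0.01 ± 0.21, and over the whole period by -0.16 ± 0.21. Both measurements are of 1 array each, so only measurement error has been set against them. Under the scalings that are not constant, quantile normalization and the authors' table, the first 2 values moved to -0.51 and 0.50 with the sign kept. These were 2.40 and 2.39 times the error. The value from E14 to E16 became 0.08 and that over the whole period 0.07, both with the sign changed and within the error. In the deposited signals miR-451 was flat from E11 to E12 while miR-126-3p went from 226 to 419, and miR-126-3p was flat from E12 to E14 while miR-451 went from 422 to 665.

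**Figure D3:**
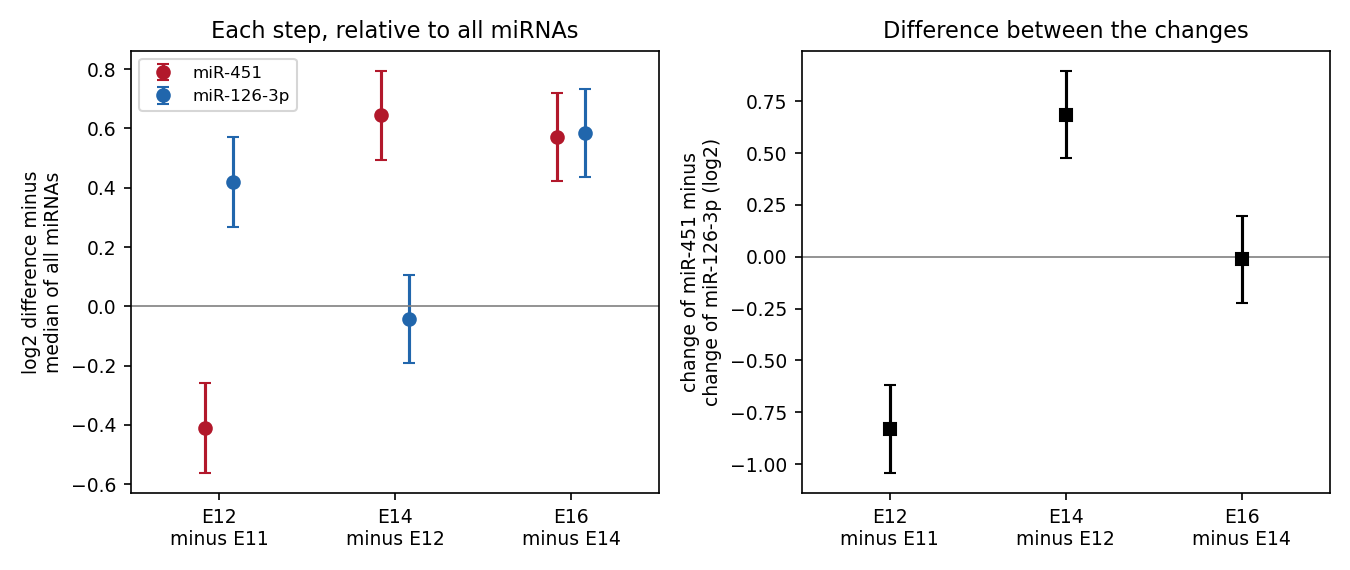
Left, log2 difference of miR-451 and miR-126-3p at each step minus the median over every miRNA that both arrays detected; right, change of miR-451 minus change of miR-126-3p (log2). Bars are combined measurement errors of 1 array per stage. The right-hand values are -0.83, 0.69 and -0.01, and those for the steps to and from E12 share the E12 array.

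miRNAs of most similar course were sought for the 3 members detected throughout, by the root mean square distance of log2 courses centred on their mean over the 4 stages, among the 196 other miRNAs detected on all arrays. This distance too is unchanged by any constant scaling. miR-324-5p (0.15), miR-455 (0.19) and miR-744 (0.25) were nearest to miR-451, where the median distance was 0.62. miR-324-5p gave 41.6, 53.3, 90.5 and 140.3 from E11 through to E16. Nearest to miR-126-3p were miR-30b (0.07), miR-434-5p (0.11) and miR-181c (0.13), with a median of 0.54. miR-30b had signals of 115.3, 230.9, 217.2 and 366.1, a rise, a plateau and a second rise like those of miR-126-3p. Nearest to miR-126-5p were miR-301a (0.10), miR-450a-5p (0.12) and miR-542-3p (0.13), with a median of 0.55. The distance between miR-451 and miR-126-3p was 0.32, place 9 as counted from miR-451 and 44 from miR-126-3p. That between the arms of miR-126 was 0.29, place 39 as counted from miR-126-3p and 19 from miR-126-5p. With 4 stages and 1 array each, such nearness is a description.

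Of the further blood miRNAs listed, 2 were detected. Among probes of further erythroid miRNAs only miR-486 was on the arrays, and it was undetected at every stage. Of 7 further leukocyte probes on the arrays 2 were detected, where 272 of all 696 miRNAs were detected on at least 1 array. miR-146a, induced by inflammatory signalling, was detected at E16 alone with 17.8 ± 4.5. miR-342-3p went from 363.3 ± 26.4 at E11 to 257.6 ± 19.5, 177.6 ± 13.6 and 179.7 ± 14.1, a scaled difference of -2.45 ± 0.15 from E11 to E16 and -1.02 on the deposited signals. The probes of miR-150 and miR-155 were detected on no array.

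Of 8 further vessel wall and endothelial probes 3 were detected, all of them on every array. Over all 696 miRNAs, 272 were detected on at least 1 array and 197 on every array. miR-143, a smooth muscle and mesenchymal miRNA, gave 14.5 ± 3.7 at E11, 52.5 ± 7.4 at E12, 65.8 ± 6.9 at E14 and 124.5 ± 10.7 at E16 as deposited, and a scaled difference of 1.67 ± 0.39 from E11 to E16. miR-145, from the same cluster, was not detected. miR-296-5p was lower at E16 by the 2-fold rule (-1.08 ± 0.17; 0.36 on the deposited signals), and miR-218 was at 0.06 ± 0.17. Thus 1 of 3 was higher and 1 of 3 lower on the main scale, where the shares of all 205 miRNAs were 13.7% and 37.6%.

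**Figure D4:**
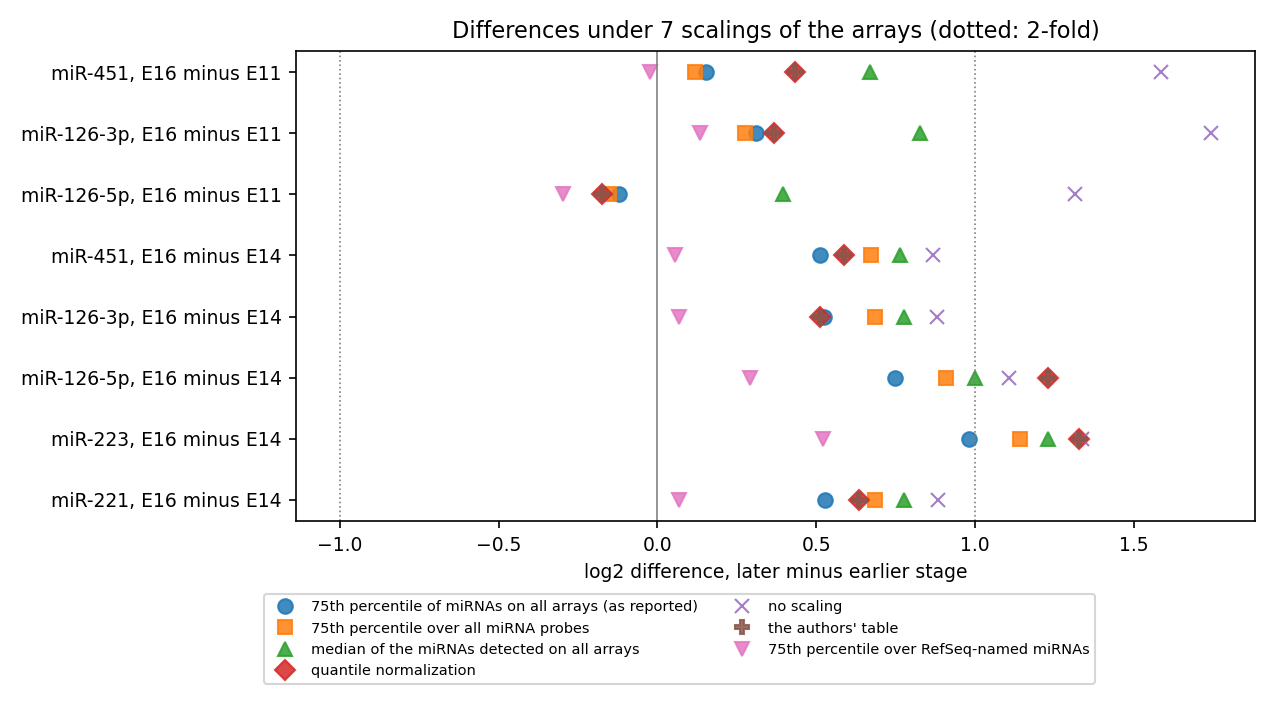
Log2 difference, later minus earlier, under 7 scalings of the arrays (1 symbol each) for members detected at both stages of E16 minus E11 or E16 minus E14; dotted lines mark 2-fold. From E11 to E16 the deposited signals alone put miR-451, miR-126-3p and miR-126-5p past 2-fold, at 1.59, 1.74 and 1.32. From E14 to E16 every symbol lies above 0. With the percentile of RefSeq-named miRNAs all but that of miR-223 do so by less than the measurement error.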

How the data were processed

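Each of the 4 samples is 1 Agilent miRNA array. The input was 100 ng of total RNA, ligated to pCp-Cy3 after dephosphorylation, per the labels' protocols. Per the file headers, the deposited intensity is the total gene signal of each feature, with its error and a detection flag; the method of background correction is not stated in them. Control features (22 of 718) were left out. The authors' series table also holds deposited intensity on a linear scale, not centred. Its detected values were recovered within 0.1% by quantile normalization over all features, and its columns have medians over detected values of 122.7, 106.2, 83.7 and 83.0 from the earliest stage to the latest (0.1 over all values); it served as an alternative.

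Log2 differences used numpy 2.4.6 and pandas 2.3.3, and the code was run on simulated data. That simulation held as many rises as falls, unlike the 28 higher and 77 lower miRNAs from E11 to E16. The members and lists were chosen with earlier results of these data known. All 8 members are named, with the 3 nearest courses of each member detected throughout and the detected miRNAs of each list. Probe names without an arm were read as the RefSeq arm listed beside them, and 656 of 696 names matched a RefSeq gene. Alternatives were 6 other scalings. No p-value is given.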

Additional observations from a re-analysis of the deposited data

How the results depend on the processing

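Counts of members past 2-fold, from detected values at both stages, changed in 9 of 48 recomputations. Quantile normalization and the authors' table are counted separately among these and gave the same counts of members. The count higher from E11 to E16 was 0 of 3, and 3 on the deposited signals. Over all 205 miRNAs it was 28 and 92. The count lower from E12 to E14 was 1 of 4, and 0 with median scaling, on the deposited signals and with the percentile of RefSeq-named miRNAs. Over all 212 miRNAs it was 32, then 18, 9 and 7 in the same order. The count higher from E14 to E16 was 0 of 5, then 1 with the percentile over all probes and with median scaling, and 2 with quantile normalization, on the deposited signals and in the authors' table. Over all 231 miRNAs it was 17, then 28 and 30, then 20, 36 and 20 in the same order. The cause was not tested. Of 90 recomputed member differences 46 stayed within their measurement error. Differences between 2 members' changes are fixed under constant scalings; of 16 recomputed by quantile normalization or from the authors' table, which gave the same member values, 8 moved beyond their error. The level taken for undetected probes from their own error was chosen after seeing the data. On the main scaling it lowered all 8 bounds, 3 of them to under 1 (miR-144 from E11 and E14, miR-223 from E11 to E12); on the deposited signals, with the scaling dropped as well, those 3 were 1.15, 1.15 and 1.21. No paired analysis was possible because each stage has 1 array. Weak probes (miR-144, miR-126-5p, miR-223 at E12) are limited by signal over background, and all values by the number of arrays.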
